A study of Homo sapiens with 4 samples.

Results

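The expressed LINC genes are the 55 rows of the count table that carry a LINC symbol (the letters LINC and a number) and whose counts over the 4 libraries summed to at least 200, out of 64253 gene rows. The table holds 1985 rows with such a symbol. Of these, 1424 had 0 counts in each library and 506 had at least 1 but fewer than 200 counts in all. Members were therefore selected on their counts summed over both groups, and their levels are given as a description. The rule did not use the difference between the groups. A549, an established human lung adenocarcinoma line, was transfected with a pENTER plasmid for NFATc2 (2 libraries) or for NFATc2M (2 libraries), a mutant that lacks a short stretch of the DNA binding domain and served as the loss of function reference. All 4 cultures received OPNc-CM, medium conditioned by HEK-293 T cells that secrete osteopontin isoform c, so both groups carry an overexpression plasmid and the same medium, and a culture without plasmid was not analysed here. The comparison addresses which transcripts depend on DNA binding by NFATc2 under the OPNc signal. The labels do not say whether the replicates were separate cultures, so the tests measure only the spread between these libraries. In bulk RNA, a change in the share of transfected cells and a change in RNA per cell cannot be told apart.

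LINC is the symbol stem given to long intergenic noncoding RNA genes that have no other name. Their transcripts are usually capped, spliced and polyadenylated like mRNA but encode no known protein, are as a class less abundant than mRNA, and differ strongly between cell types. Some act in the nucleus on the gene beside them, others bind proteins or microRNAs in the cytoplasm, and for most no function is known. NFATc2 is a transcription factor that calcineurin sends to the nucleus when intracellular calcium rises, where it binds DNA motifs with the core GGAAA.

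The libraries held 21011786 to 23527259 counts in genes, and the LINC genes 11228 to 12920 of these. All 55 members had counts in each of the 4 libraries and passed the filter on low counts. ALDH1A1, AKR1B10 and KRT8, abundant in A549 cells, had 17464 to 89219 counts in the 4 libraries. CDKN2A and CDKN2B, from a region deleted in these cells, had 0, and MTAP from the same region had 2 to 7. The lung markers SFTPB and NKX2-1 had at most 4. EPCAM, an epithelial surface marker, had 48 to 70 counts. Among the HEK-293 T markers, INA had 1405 to 1864 counts, CHRNA5 541 to 857 and ZIC2 444 to 561. NEFL, GATA2, LIN28B, PAX2 and NEFM had 9 to 198, and DPPA4 and SIM1 had 0. NFATC2 had 47791 to 58522 counts with overlapping groups, and since wild type and mutant transcripts are counted together, this is no check of the labels. Of the tested marker genes of A549 and HEK-293 T cells, 0 passed an adjusted p of 0.05 in edgeR, DESeq2 or limma voom (CHRNA5, GATA2 and KRT18 had an unadjusted p under 0.05 in edgeR). The LINC genes together held 0.0553% and 0.0549% of the gene counts with NFATc2 and 0.0534% and 0.0573% with NFATc2M. The NFATc2M libraries lay on both sides of the NFATc2 libraries, and with 2 against 2 an exact two-sided permutation test cannot go below p = 0.333.

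Promoters are shown for a pair of members, so that the NFAT core can be read against the sequence. They belong to the members with the smallest unadjusted p in each direction among those that did not pass, restricted to members whose RefSeq and GENCODE starts lie within 1 kb of each other, a choice made after the values were seen. Each runs from 250 bases before to 50 bases after the RefSeq start (build GRCh38.p14), and capitals mark the NFAT core GGAAA on either strand. LINC01833, chr2:44939150-44939449, minus strand, lies beside SIX3, a homeobox gene, and had 205 and 162 counts with NFATc2 against 128 and 153 with NFATc2M (log2 fold change 0.33, SE 0.23). LINC01089, chr12:121802897-121803196, minus strand, lies head to head with SETD1B, a histone H3 lysine methyltransferase gene whose start is 103 bases from the GENCODE start of LINC01089. The RefSeq start used for the window lies 960 bases from that GENCODE start.
LINC01833: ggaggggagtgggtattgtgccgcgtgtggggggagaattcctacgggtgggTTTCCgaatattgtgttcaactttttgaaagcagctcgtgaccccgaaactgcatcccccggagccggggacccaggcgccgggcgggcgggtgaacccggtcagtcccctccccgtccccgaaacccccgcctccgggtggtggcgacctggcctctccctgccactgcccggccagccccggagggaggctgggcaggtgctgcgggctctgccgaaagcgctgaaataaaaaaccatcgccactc
LINC01089: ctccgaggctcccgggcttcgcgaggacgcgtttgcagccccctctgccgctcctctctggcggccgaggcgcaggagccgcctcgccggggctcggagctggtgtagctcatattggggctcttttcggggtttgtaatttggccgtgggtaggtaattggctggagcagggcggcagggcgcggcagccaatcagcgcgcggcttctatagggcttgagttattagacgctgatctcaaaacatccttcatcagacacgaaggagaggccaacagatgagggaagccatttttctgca
The LINC01833 window holds 1 match, on the reverse strand, whose first base lies at -198 from the start, and the LINC01089 window holds 0. RefSeq promoters were matched by name for 40 of the 55 members, and LINC00707, the member that passed, was not among them. For 30 of the 40 the RefSeq and GENCODE starts lay within 1 kb on the same strand. The farthest, of LINC00973, lay 66492 bases away. GGAAA on either strand stood in 24 of the 40 (60.0%), beside 61.4% of all 27305 promoters of the same length. The longer form GGAAAA, which contains the shorter one, stood in 7 (17.5%), beside 24.3% of all. A match is a run of letters and not a binding site.

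Levels spread over a wide range, and a few genes held much of the signal. The members had 201 to 3644 counts each (median 554), and the 10 highest held 45.7% of the 48460 counts. Mean CPM, counts per 1000000 after TMM scaling of the libraries, ran from 2.30 to 41.5, with 25 members under 5 CPM and 7 over 20. LINC02582, the highest, had 875 and 1081 counts with NFATc2 and 741 and 947 with NFATc2M. Its CPM was 43.5 ± 4.30 (SD, n = 2) and 39.4 ± 6.17 (SD, n = 2), and the groups overlapped. On chromosome 18 (GRCh38) LINC02582 spans 73324941 to 73349879, and a second member of high level, LINC02864, lies 60461 bases from it on the opposite strand (73151241 to 73264480). LINC02864 had 27.8 and 26.8 CPM with NFATc2 against 22.3 and 25.4 with NFATc2M. NETO1, a gene of a kainate receptor auxiliary subunit, is the nearest coding gene of both and fell below the filter on low counts.

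**Figure D1:**
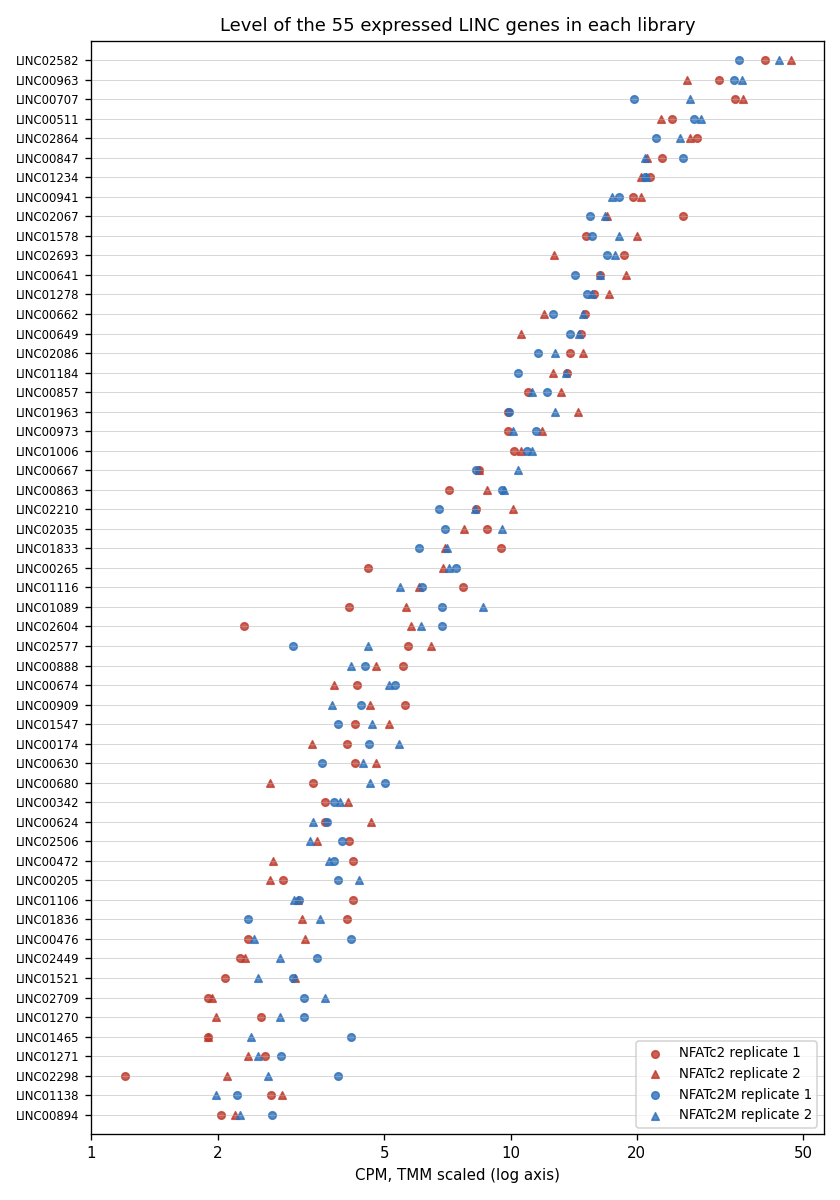
Level of each of the 55 expressed LINC genes in the 4 libraries, as TMM-scaled CPM on a log axis, with genes ordered by mean level. Points stand for single libraries (red NFATc2, blue NFATc2M, circle replicate 1, triangle replicate 2), and the means run from 2.30 CPM (LINC00894) to 41.5 CPM (LINC02582).

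LINC00963, described as an oncogenic transcript in prostate cancer, came second with 31.5 and 26.4 CPM with NFATc2 and 34.1 and 35.7 with NFATc2M. LINC00511, described as a partner of the Polycomb methyltransferase EZH2 in lung cancer cells, had 24.2 and 22.9 CPM against 27.5 and 28.5. For both genes each NFATc2 library was below each NFATc2M library, but neither passed the test (log2 fold changes -0.27 and -0.25). LINC00847 (22.1 ± 1.27 against 23.3 ± 3.48 CPM, SD, n = 2) and LINC01234 (21.0 ± 0.75 against 21.0 ± 0.13 CPM, SD, n = 2) overlapped between the groups. LINC01234, a transcript described in carcinomas, had 466 and 476 counts against 442 and 456, and its log2 fold change of 0.004 had a standard error of 0.16. LINC00941, which lies across from CAPRIN2 on chromosome 12, had 20.1 ± 0.63 against 17.8 ± 0.52 CPM (SD, n = 2) and did not overlap, with a log2 fold change of 0.17 (SE 0.17). LINC01578 had 15.2 and 20.1 CPM against 15.6 and 18.1. This transcript, also named CHASERR, is known in mouse to hold down its neighbour CHD2, a chromatin remodeler gene, in cis. CHD2 had a log2 fold change of -0.11 (adjusted p = 0.64 from edgeR) and LINC01578 one of 0.06.

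The order changes when the level is taken per length. Over the 51 members with a usable exonic length in the GENCODE annotation, the median was 1.10 CPM per kb. LINC02582 again came first with 16.6 CPM per kb, followed by LINC00941 with 14.0 and LINC00973, a gene of 962 exonic bases, with 11.3. LINC02067 had 6.60, LINC00857 had 4.76 and LINC00707 had 4.34 CPM per kb. LINC00472, at 0.141 CPM per kb, was the lowest. These lengths join all annotated exons of a gene, so a gene with long rare isoforms comes out low. All exonic bases of LINC00941 are also exons of another gene on the same strand in that annotation, so its reads may be shared.

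LINC00707 was the one member that passed an adjusted p of 0.05, and it was higher with NFATc2. It lies on the plus strand of chromosome 10 from 6779549 to 6842906, with 10 annotated exons and 6728 exonic bases, and is described as promoting growth of several kinds of cancer cell, lung adenocarcinoma among them. Of its exonic bases, 14.0% are also exons of another gene on the same strand, so some reads may be shared. The counts were 742 and 834 with NFATc2 and 417 and 580 with NFATc2M, or 34.3 and 35.9 CPM against 19.7 and 26.8. Both NFATc2 libraries were above both NFATc2M libraries, and the spread came mostly from the NFATc2M pair (35.1 ± 1.13 against 23.3 ± 5.01 CPM, SD, n = 2). The log2 fold change was 0.59 (SE 0.15, 1.51-fold, adjusted p = 0.0051 by the quasi-likelihood F-test of edgeR). The nearest coding gene, PRKCQ, which encodes protein kinase C theta, starts 199248 bases away and had a log2 fold change of 0.24 (adjusted p = 0.53 from edgeR).

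The call of LINC00707 was lost in 4 of 16 alternative fits, and the fold change stayed above 0 in all 16. When an offset took out each library's trend over GC content and length (the GC and length offset) it was 0.42 (adjusted p = 0.096 from edgeR). Without NFATc2M replicate 1, the library in which the gene was lowest, it was 0.38 (adjusted p = 0.38), and without NFATc2 replicate 2 it was 0.56 (adjusted p = 0.12). The other 2 fits that leave out a library gave 0.63 (without NFATc2 replicate 1, adjusted p = 0.039) and 0.84 (without NFATc2M replicate 2, adjusted p = 0.0017). DESeq2 and limma voom on the 4 libraries passed it, with adjusted p = 0.019 and 0.0072.

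**Figure D2:**
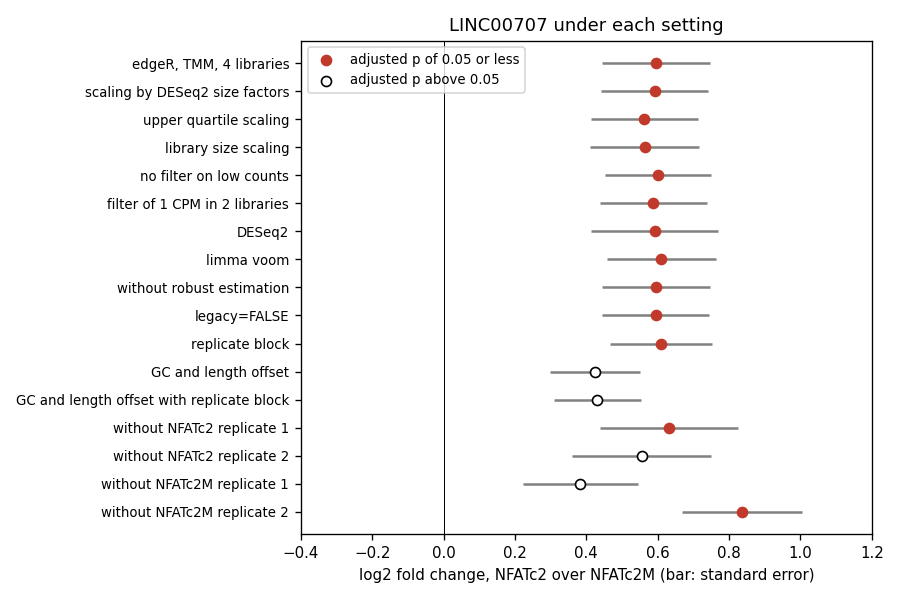
Log2 fold change of LINC00707 (NFATc2 over NFATc2M) with its standard error in the fit on 4 libraries and under 16 alternatives; filled points have an adjusted p of 0.05 or less. The values run from 0.38 without NFATc2M replicate 1 to 0.84 without NFATc2M replicate 2, and 4 alternatives have open points.

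With 1 of 55 members called (1.82%), the LINC genes stood below the background of this comparison. In the same fit 8.64% of the 17459 tested genes passed, 4.90% higher and 3.73% lower with NFATc2, and 7.77% of the 8689 tested genes in the members' range of summed counts. Genes in that range were not matched in level. They had a median of 1115 counts and a median standard error of 0.19, against 554 and 0.24 for the members. The split of all genes into 856 higher and 652 lower turned to 662 and 864 with upper quartile scaling and to 556 and 707 with library size alone, while the LINC count stayed at 1 higher and 0 lower in both. An unadjusted p under 0.05 was reached by 9 members (16.4%, 3 higher and 6 lower), beside 23.3% of all genes. The libraries of the groups did not overlap in 12 members that were higher and 17 that were lower (52.7% in all), beside 53.1% of all genes. The median log2 fold change was -0.0004 over the members and 0.0006 over all genes, with 27 members above 0 and 28 below. No test of the members as a set was made, so a lower share of calls is a description of this list.

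**Figure D3:**
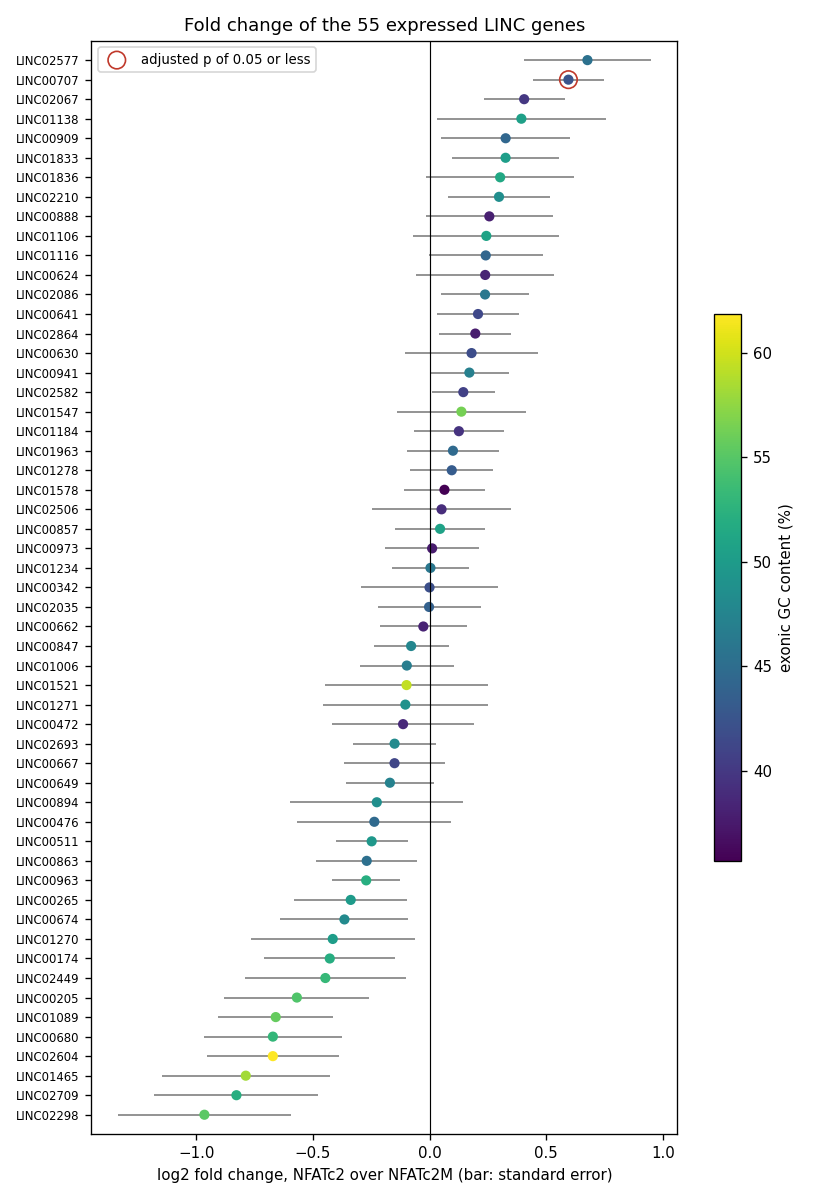
Log2 fold change (NFATc2 over NFATc2M) of the 55 expressed LINC genes with standard errors, coloured by exonic GC content, and with a ring around the gene past an adjusted p of 0.05. LINC00707 at 0.59 is ringed, the values run from -0.97 (LINC02298) to 0.68 (LINC02577), and the lowest genes are those of high GC content.

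The precision of single members was limited by their counts. The standard error of the log2 fold change had a median of 0.24 over the members, from 0.14 (LINC02582) to 0.37 (LINC00894), beside 0.18 over all genes. In 33 of 55 members the larger gap between the replicates of a group exceeded the fold change between the groups. Of the 9 members with an absolute log2 fold change over 0.5, 2 were above and 7 below 0. The 8 of these that did not pass had 214 to 551 counts, and a p above the threshold does not show that a level was the same.

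Of the 8 other members with an unadjusted p under 0.05, none passed the adjusted threshold. LINC02577, whose function is not known, had 123 and 150 counts with NFATc2 and 64 and 99 with NFATc2M, the largest positive log2 fold change of the members (0.68, SE 0.27, adjusted p = 0.10 from edgeR). It was 0.40 without NFATc2M replicate 1 and 1.01 without NFATc2M replicate 2. LINC02067, an intergenic gene of chromosome 3, had 557 counts in NFATc2 replicate 1 but 395, 327 and 364 in the other libraries. One library thus stood above the remaining 3, and the log2 fold change of 0.41 (SE 0.17) had an adjusted p of 0.13 from edgeR. It was 0.08 without that library, 0.67 (adjusted p = 0.074 from edgeR) without NFATc2 replicate 2 and 0.18 with the GC and length offset.

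LINC01089, also named LIMT and described as a transcript that epidermal growth factor lowers in mammary cells, had 89 and 131 counts with NFATc2 and 145 and 186 with NFATc2M. The groups did not overlap, and the log2 fold change was -0.66 (SE 0.25, adjusted p = 0.074 from edgeR), the smallest adjusted p of the members that did not pass. Of its exonic bases, 57.9% are also exons of a gene on the opposite strand, so its reads may be shared where counting did not use strand. LINC02298 had 26 and 49 counts against 82 and 57, the most negative value of the members (-0.97, SE 0.37, adjusted p = 0.084 from edgeR). It ran from -0.62 without NFATc2 replicate 1 to -1.44 without NFATc2 replicate 2, and that of LINC01089 from -0.45 to -0.91 without the same libraries. LINC02709 (41 and 45 against 68 and 78 counts), LINC00680 (73 and 62 against 106 and 100) and LINC01465 (41 and 44 against 88 and 52) had the same order of groups, at log2 fold changes of -0.83, -0.67 and -0.79. The value of LINC01465 was -0.35 without NFATc2M replicate 1 and -1.13 without NFATc2M replicate 2.

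LINC02604 had the widest gap between replicates. It had 50 counts in NFATc2 replicate 1 and 134 in NFATc2 replicate 2, against 145 and 132 with NFATc2M, so that a single library was low. The log2 fold change was -0.67 (adjusted p = 0.13 from edgeR) with 4 libraries, -1.49 (adjusted p = 0.0069) without NFATc2 replicate 2 and -0.16 (adjusted p = 0.82) without NFATc2 replicate 1.

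Several members with a role described in cancer cells lay between these ends. LINC01116 had 166 and 140 counts against 130 and 118, and its groups overlapped in CPM (7.68 and 6.03 against 6.14 and 5.45). LINC00662 had 325 and 279 counts against 267 and 323, with overlapping groups, and LINC00667 had 182 and 195 against 175 and 225. LINC01138, described in liver cancer as stabilising the arginine methyltransferase PRMT5, had 58 and 66 counts against 47 and 43. Their log2 fold changes were 0.24, -0.03, -0.15 and 0.39, and none had an unadjusted p under 0.05.

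At the threshold of the rule, LINC00894 (201 counts), LINC02298 (214) and LINC01138 (214) were the members just inside. LINC01433 (198), LINC00893 (197) and LINC01914 (191) were just outside. LINC00893 had 33 and 30 counts with NFATc2 and 70 and 64 with NFATc2M. Its log2 fold change was -1.15 (SE 0.38, adjusted p = 0.040 from edgeR), so it passed as lower with NFATc2 but is not a member. The count of members called thus depends on the count threshold of the rule.

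The fold change of the members followed the base composition of their exons. Exonic GC content ran from 35.7% (LINC01578) to 61.8% (LINC02604), with a median of 46.9% beside 48.7% over all genes. Of the 22 members under 45% GC, 16 had a positive log2 fold change, and of the 18 over 50% GC, 12 had a negative one. Across the 55 members the log2 fold change and GC content had Pearson's r = -0.56 and Spearman's rho = -0.50. Across 17163 tested genes the values were -0.46 and -0.56. These are descriptions over genes that share the same 4 libraries, and genes are not independent replicates.

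With the GC and length offset, r over the members became -0.16. Their median log2 fold change became -0.13 (all genes 0.0067), with 39 of 55 below 0, beside 8538 of 17459 tested genes. Between libraries of a group, the median log2 CPM of the members had an SD of 0.097. In the fit with the offset 1.91% of all tested genes passed and 0 members did in edgeR. There an unadjusted p under 0.05 was reached by 5 of 55 members, beside 2858 of 17459 tested genes. Without the offset, DESeq2 and limma voom each called 1 member. DESeq2 gave no adjusted p for several members of lower count, among them LINC01089, LINC02298 and LINC01116, so these could not be called there. The sign of 12 members turned from positive to negative with the offset, among them LINC02582, LINC02864, LINC01234 and LINC01578, and that of 1 (LINC01521) from negative to positive. The part of GC content in the fold changes was not tested beyond this fit.

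**Figure D4:**
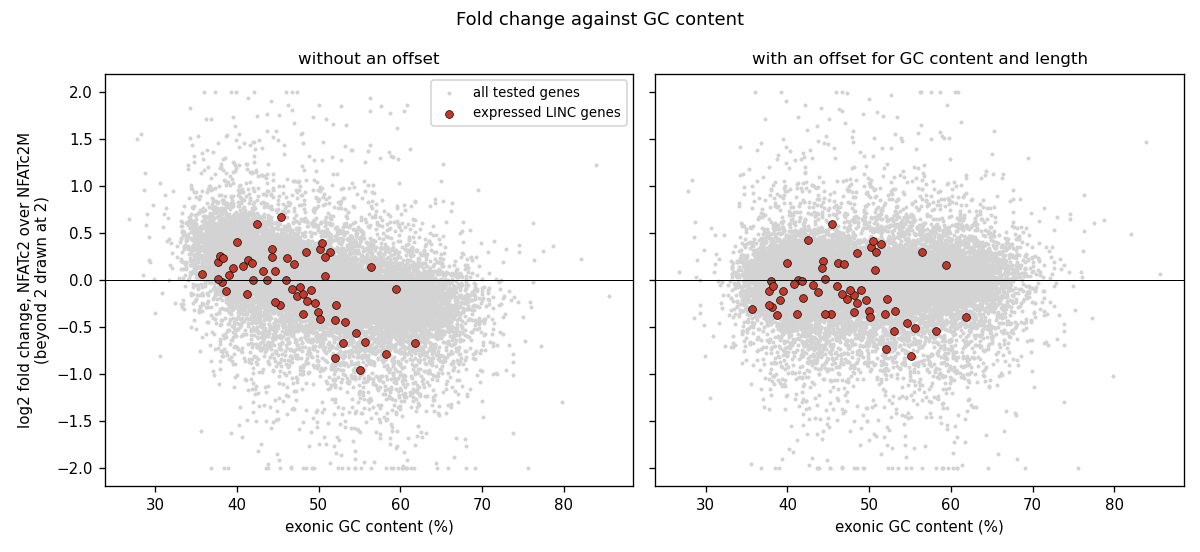
Log2 fold change (NFATc2 over NFATc2M, values beyond 2 drawn at 2) against exonic GC content for all tested genes (grey) and the 55 expressed LINC genes (red), without an offset on the left and with the GC and length offset on the right. The members slope downwards on the left (r = -0.56) and less so on the right (r = -0.16).

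Coding neighbours were read beside the LINC genes, since some transcripts of this class act on the gene next to them. By the GENCODE annotation, 12 members were divergent, with the start of a coding gene within 5 kb on the opposite strand. Of the others, 5 overlapped a coding gene on the opposite strand, 5 overlapped one on the same strand and 33 were intergenic. Divergent members were set apart first, and some of them, LINC01089 for example, also overlap a coding gene. A tested coding neighbour was found for 47 members, 46 distinct genes. LINC gene and neighbour had fold changes of the same sign in 24 of 47 pairs, and in 9 of 12 divergent pairs. Pearson's r over the pairs was -0.13 (n = 47), with 0.24 over the 12 divergent and -0.24 over the 35 other pairs, as a description over genes of the same libraries.

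Of the neighbours, 6 rose and 1 fell past an adjusted p of 0.05 in edgeR (15.2% of 46, beside 8.64% of all tested genes, a difference that was not tested), and none of these 7 adjoined LINC00707. XRCC5, the Ku80 subunit that binds DNA ends, rose by 0.44 on the log2 scale (SE 0.10, adjusted p = 0.0022), while LINC01963 beside it had 9.86 and 14.5 CPM with NFATc2 against 9.93 and 12.8 with NFATc2M. DCBLD2, a membrane receptor gene, rose by 0.37 (adjusted p = 0.0095 from edgeR), and LINC00973, which lies 79363 bases away, had a log2 fold change of 0.01. SWAP70, PRIM2 and MON2, the nearest coding genes of LINC02709, LINC00680 and LINC01465, rose, while these members had negative values. They lie 1777, 312179 and 1275 bases from their members. PRIM2 encodes the large subunit of DNA primase and had the highest value of the 3 (0.60, adjusted p = 0.017 from edgeR). All annotated exonic bases of LINC00680 are also exons of another gene on the same strand, so its reads may be shared. OGFRL1 rose by 0.49 (adjusted p = 0.016 from edgeR), and LINC00472, antisense to it, had a log2 fold change of -0.11.

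CEBPB, a leucine zipper transcription factor gene, was the neighbour that fell (log2 fold change -0.38, adjusted p = 0.010 from edgeR). It is the nearest coding gene of LINC01270 and LINC01271, at 100041 and 107208 bases. These members overlap on opposite strands of chromosome 20, and 31.5% of the exonic bases of LINC01270 are also exonic on the other strand. LINC01270 had 55 and 46 counts against 68 and 61, and LINC01271 had 56 and 55 against 60 and 54. Neither passed the test, at log2 fold changes of -0.42 and -0.10. With the GC and length offset, 1 of these 7 neighbours still passed, XRCC5 (0.29, adjusted p = 0.048 from edgeR). PTBP1, a splicing regulator gene beside LINC01836, passed with the offset (0.34, adjusted p = 0.027 from edgeR) and not without it (0.12, adjusted p = 0.50). The 6 that rose had 35.8% to 43.0% GC and CEBPB 66.2%.

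**Figure D5:**
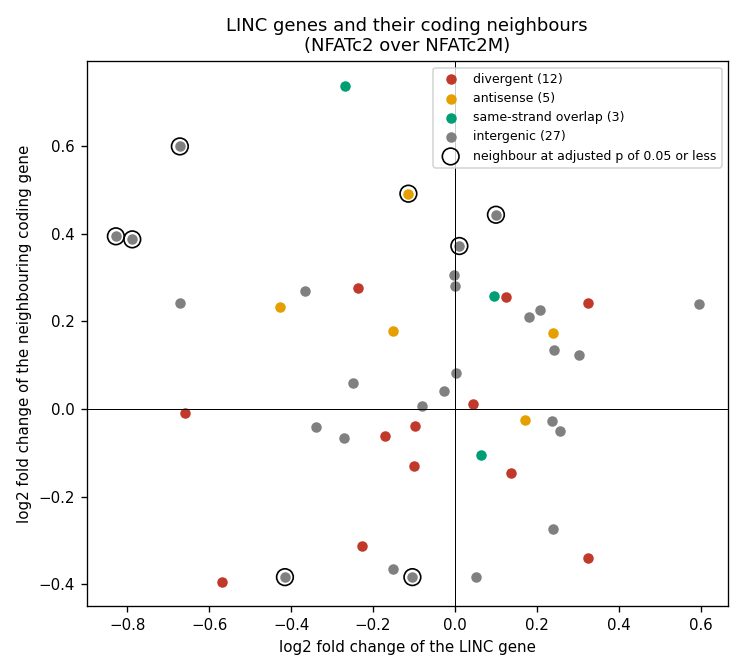
Log2 fold change (NFATc2 over NFATc2M) of 47 LINC genes on the x axis and of their coding neighbour on the y axis, coloured by position. Members whose neighbour was not tested are left out, and rings stand around neighbours at an adjusted p of 0.05 or less. Same signs were found in 24 of 47 pairs, and the ringed neighbours include PRIM2 (0.60) and CEBPB (-0.38).

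Genes that cut, trim and degrade long noncoding RNA were read in the same fit. Of 25 genes of the nuclear exosome and its adaptors, which remove unstable nuclear transcripts, 3 rose and 0 fell (12.0%, beside 8.64% of all tested genes, with a median log2 fold change of 0.09). They were NCBP1, a cap-binding subunit (0.45, adjusted p = 0.0075 from edgeR), MTREX, the exosome helicase (0.40, adjusted p = 0.020) and EXOSC9, a core subunit (0.52, adjusted p = 0.023). Of 24 genes of Integrator and of 3′ end cleavage, which terminate transcripts, 3 rose and 1 fell (16.7%, median 0.16). Whether these shares differ from that of all genes was not tested. CPSF2 (0.45) and INTS8 (0.43) were among those that rose, and CPSF1, a subunit of the same cleavage complex as CPSF2, fell (-0.49, adjusted p = 0.00098 from edgeR).

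Of 17 genes listed for cytoplasmic decay, 0 passed in edgeR, DESeq2 or limma voom. An unadjusted p under 0.05 in edgeR was reached by 4 (23.5%, beside 23.3% of all tested genes). That list also holds XRN2, a nuclear exonuclease gene. With the GC and length offset 0 genes of each list passed in edgeR, beside 1.91% of all tested genes. An unadjusted p under 0.05 was then reached by 1 of 25, 6 of 24 and 2 of 17 genes of the exosome, Integrator and decay lists. Over all tested genes it was reached by 2858 of 17459. NCBP1, MTREX and EXOSC9 had 36.9% to 41.5% GC and CPSF1 63.8%.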

How the data were processed

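RNA-seq counts of 4 A549 libraries (2 NFATc2, 2 NFATc2M) were analysed. The authors captured poly(A) RNA, sequenced read pairs, used HISAT2 for alignment to GRCh38, SAMtools 1.18 for sorting and HTSeq 0.11.2 for counting over Ensembl genes. The HISAT2 version and the strand setting are not given in the sources used here. The deposited table holds raw whole-number counts for each gene. Columns were matched to samples by name, and 4 unnamed value columns were not used. The 5 HTSeq summary categories (56.4% to 57.4% of each total) were left out. LINC names are those of the file. It gives no name for 6792 rows, 2497 of them on chromosome 1, so members there may be missed.

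The test was edgeR 4.0.16 in R 4.3.3: filterByExpr, TMM, robust glmQLFit (legacy=TRUE, 2 residual degrees of freedom) and glmQLFTest, without a block. P-values were Benjamini-Hochberg adjusted over all 17459 tested genes and called at 0.05. The script was tested on simulated counts. Coordinates, length, GC content and neighbours came from GENCODE on GRCh38, a later annotation than the one counted. It gives 6 members another name and types 4 as pseudogenes, which have no level per length here. Promoters came from RefSeq (GRCh38.p14). Alternatives were DESeq2 1.42.0, limma 3.58.1 voom, other scalings, filters and thresholds, a replicate block, an offset for GC content and length (spline with 5 degrees of freedom) and each library left out. Where a library was left out, its group kept 1 library, whose spread was taken from the other group.

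The text names LINC genes past the threshold, the 10 of highest CPM, those next to the rule's threshold, members of a list with described roles, and up to 3 called genes per other list. LINC genes with an unadjusted p under 0.05, the highest per length and the neighbours were named after their values were seen. Members and lists were chosen with earlier results of these data known.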

Additional observations from a re-analysis of the deposited data

How the results depend on the processing

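LINC00707 kept a positive fold change in each alternative and passed in 12 of 16 fits. The count of LINC genes called was 0 with the GC and length offset, and 0 with the offset and the replicate block. It was also 0 among the 19 members without exonic overlap, which leave out LINC00707 itself. Of these 19, 2 had an unadjusted p under 0.05 in edgeR (10.5%, beside 23.3% of all tested genes). With summed counts of at least 100, the count was 2 of 96 (LINC00707, higher, and LINC00893, lower), beside 8.64% of all tested genes. When a library was left out, the log2 fold change ran from 0.38 to 0.84 for LINC00707 and from -1.49 to -0.16 for LINC02604. Over all genes, 995 passed with DESeq2, 334 with the offset, 260 with offset and block, 591 at an adjusted p of 0.01, and 73 to 1963 when a library was left out (584 without NFATc2 replicate 1, 318 without NFATc2 replicate 2, 73 without NFATc2M replicate 1). The replicate block gave 1 LINC gene and 1759 genes in all. Same-numbered libraries deviated together with r = 0.04 over genes, which shows little shared deviation. It cannot exclude that they were prepared together, and the labels do not say whether the numbers pair the samples. The median log2 fold change of the LINC genes became -0.13 with the offset (all genes 0.0067). Their mean share of gene counts was 0.0552%, or 0.0511% without LINC02582.

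The sign turned for genes that did not pass. The offset turned 12 of 55 members from positive to negative and 1 to positive. With the offset, alone and with the block, the log2 fold changes were -0.048 and -0.049 for LINC02582, -0.12 and -0.12 for LINC02864, -0.064 and -0.065 for LINC01234, and -0.31 and -0.32 for LINC01578, the genes named here among the 12. LINC01234 also had -7.9e-05 with DESeq2 size factors, -0.032 with upper quartile scaling, -0.028 with library size, -0.0035 with a filter of 1 CPM and -7.2e-05 in DESeq2. Leaving out a library gave -0.015 to 0.32 for LINC02582, -0.22 to 0.073 for LINC00847, -0.029 to 0.033 for LINC01234, -0.16 to 0.25 for LINC01578, -0.19 to 0.12 for LINC00662 and -0.31 to 0.026 for LINC00667. The causes were not tested.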

Other observations

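Other genes outside the rule stood beside the LINC genes in the same fit. The later annotation gives a LINC name to 11 genes with at least 200 counts that the count table names otherwise or not at all, 3 of them on chromosome 1 (LINC00339, LINC02593 and LINC01128). The most abundant, LINC03061 on chromosome 13, had 1188 and 1236 counts with NFATc2 and 1005 and 1179 with NFATc2M, more than any member, and a log2 fold change of 0.09 (SE 0.13, adjusted p = 0.74 from edgeR). Of the 11 genes, 0 passed in edgeR, DESeq2 or limma voom, and LINC02593 (105 and 111 against 184 and 110 counts) was the 1 gene with an unadjusted p under 0.05 in edgeR (0.046).

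Of the 1429 other tested genes annotated as long noncoding RNA with at least 200 counts, 27 were higher and 58 lower past the threshold (5.95%), with a median log2 fold change of -0.07. Of all tested genes, 8.64% passed, 4.90% higher and 3.73% lower. Among the long noncoding RNA genes, 7 of 460 with an antisense name (ending in AS) were higher and 20 lower (5.87%). Of 76 named as divergent transcripts, 2 were higher and 1 lower (3.95%). Of 20 small nucleolar RNA host genes, 6 were lower and 0 higher, and of 17 microRNA host genes 3 were lower and 0 higher (17.6%). With the GC and length offset 29 of the 1429 passed, beside 1.91% of all tested genes. In that fit 5 of the 20 small nucleolar RNA host genes and 1 of the 17 microRNA host genes passed. So did 8 of the 460 genes with an antisense name and 2 of the 76 divergent transcripts. The differences between these groups of genes, and from all genes, were not tested.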
